A study of Homo sapiens with 6 samples.

Results

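RNA-Seq of C4-2B prostate cancer cells was examined for 10 keratin genes: KRT8, KRT18, KRT19, KRT5, KRT14, KRT15, KRT17, KRT7, KRT20 and KRT80. They were taken by symbol from the 58024 genes in the table, and each symbol occurred once. KRT8, KRT18 and KRT19 were grouped here as luminal keratins of the prostate and KRT5, KRT14, KRT15 and KRT17 as basal keratins. KRT7, KRT20 and KRT80 were grouped as keratins of other simple or differentiated epithelia. C4-2B is a castration-resistant derivative of the LNCaP line, obtained by passage through castrated nude mice. There were 3 libraries of C4-2B parental cells and 3 of C4-2B enzalutamide resistant cells. Resistance had been raised by passage in 1 to 20 µM enzalutamide, an antiandrogen, over a minimum of 6 months, after which a dose of 5 µM was maintained, while the parental cells were carried alongside in vehicle, dimethyl sulfoxide. The surviving cells were pooled, so the resistant line is a selected population and not a clone. Both lines grew in RPMI-1640 with 10% FBS. The sources also name 10 µM enzalutamide at RNA extraction, in wording that leaves unclear whether the parental cells received it, and nothing says whether the 3 libraries of a line came from separate cultures. The p values therefore measure the spread between libraries, which may be technical.

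Keratins are the intermediate filament proteins of epithelial cells. A type I keratin pairs with a type II keratin, and the pair assembles into filaments that are anchored at desmosomes through plakin proteins. In the prostate, luminal secretory cells carry KRT8 and KRT18, whereas basal cells carry KRT5 and KRT14, and keratin genes are therefore used as markers of epithelial identity. KRT8, KRT5, KRT7 and KRT80 are type II genes, located on chromosome 12. KRT18 is a type I gene that lies beside KRT8 on the same chromosome, and the other type I members, KRT19, KRT14, KRT15, KRT17 and KRT20, are on chromosome 17.

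Levels are given as FPKM, sequenced fragments scaled to transcript length and to library size, which allows a comparison between genes. The libraries held an estimated 13300000 to 20200000 reads, and a single read on a transcript of 2000 bases was worth 0.0274 to 0.0417 FPKM. Resistant replicate 0 listed 27153 genes above 0, against 21956 to 24080 in the other 5 libraries. Short non-coding RNA took 19.4% to 20.7% of the summed FPKM in parental libraries and 22.9% to 24.0% in resistant libraries. Fold changes were obtained with limma on log2(FPKM + 0.1), which understates the change of genes with low values, and were adjusted by the Benjamini-Hochberg method over 24468 genes whose mean over the 6 libraries reached 0.1 FPKM. The median log2 fold change of those genes was -0.05, and it was 0.05 after the libraries were scaled to the same median of ratios.

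Of the 10 keratins, 7 passed the filter on low values. KRT19, KRT7, KRT15 and KRT8 were upregulated in resistant cells, and KRT18, KRT14 and KRT80 were downregulated. Of all genes tested, 22.1% were called higher and 22.3% lower, 44.4% in either direction. The ranges of the groups did not overlap for all 7 keratins tested, and the same held for 54.8% of all genes tested. KRT7, KRT14 and KRT80 reached a mean of 0.1 FPKM only in the group in which they were higher, so a difference was needed for them to be tested, and these counts describe the members that passed and support nothing further. With a change of at least 2-fold also required, KRT8 and KRT18 were not called, which left 3 keratins called higher and 2 lower. KRT5, KRT17 and KRT20 had a mean under 0.1 FPKM and were not tested.

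**Figure D1:**
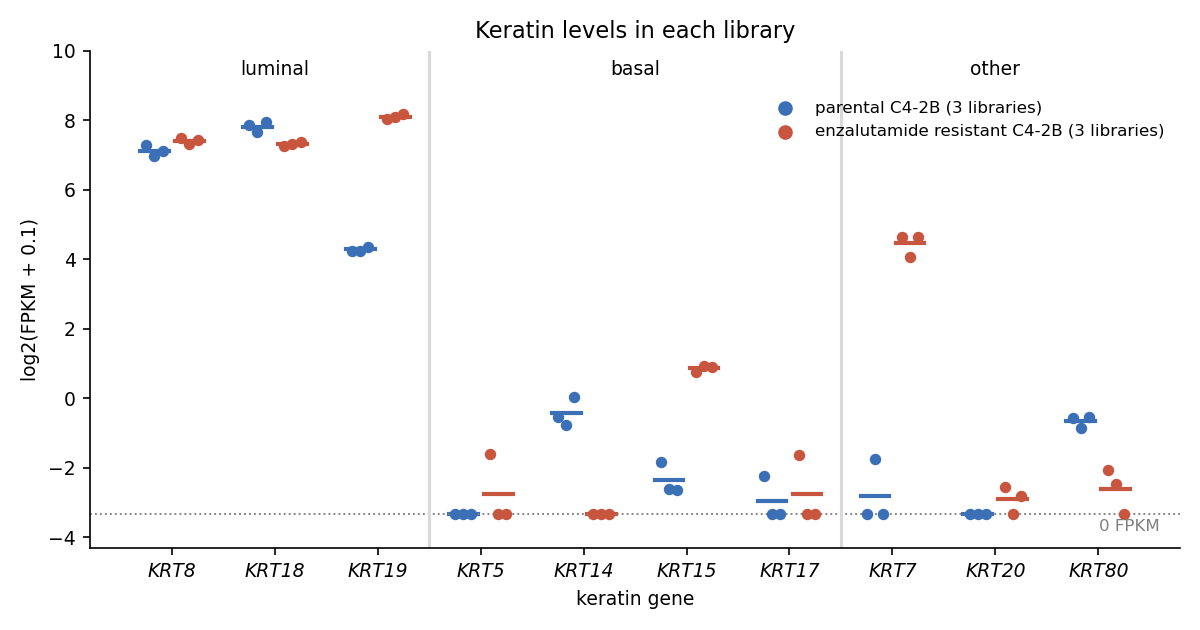
Level of each of the 10 keratins on the y axis, as log2(FPKM + 0.1), in every library. Points are libraries, short bars are the means of 3 libraries on this scale, and the dotted line marks a listed value of 0. The resistant points of KRT19, KRT7 and KRT15 lie far above the parental points, those of KRT14 lie on the line at 0, and those of KRT8 and KRT18 are close to the parental ones.

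KRT19, the smallest keratin and a type I protein without a tail domain, showed the widest separation among the luminal genes. It was at 18.9, 18.9 and 20.6 FPKM in parental replicates 0, 1 and 2 and at 260.1, 276 and 287 FPKM in resistant replicates 0, 1 and 2. Each resistant library was above every parental library, and the libraries within a group lay close together. The mean was 19.5 ± 0.956 FPKM in parental cells and 274 ± 13.7 FPKM in resistant cells (SD, n = 3 each), 14.1-fold higher (log2 fold change 3.81, SE 0.07, limma with Benjamini-Hochberg adjustment, adjusted p = 1.74e-06). By mean level KRT19 ranked 6223 of 58024 genes in parental cells and 322 in resistant cells. The gene lies on the minus strand of chromosome 17, at chr17:41523617-41528308 (GRCh38, GENCODE v44).

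KRT18, the type I partner of KRT8 in luminal cells, was the highest keratin in parental cells. Its parental values were 231, 201 and 249 FPKM and its resistant values were 152, 160.1 and 167 FPKM. All 3 resistant libraries were under the lowest parental library. The mean went from 227 ± 24.5 to 159.6 ± 7.43 FPKM (SD, n = 3 each), with a log2 fold change of -0.50 (SE 0.09, limma with Benjamini-Hochberg adjustment, adjusted p = 0.00584). Its rank among all genes changed from 425 to 607. KRT18 is on the plus strand at chr12:52948871-52952906.

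KRT8, the type II partner of KRT18, moved the other way and by a small amount. Its values were 155, 125 and 137 FPKM in parental libraries and 179, 159.7 and 172 FPKM in resistant libraries. The groups did not overlap, but the lowest resistant library was only slightly above the highest parental one. The mean was 139 ± 15.1 against 170.3 ± 9.98 FPKM (SD, n = 3 each), with a log2 fold change of 0.30 (SE 0.10, 95% interval 0.06 to 0.53, limma with Benjamini-Hochberg adjustment, adjusted p = 0.0466). This call was lost when any of 5 libraries was left out, namely parental replicates 1 and 2 and resistant replicates 0, 1 and 2, with adjusted p values of 0.0623 to 0.132, and it was lost without the filter on low values (0.0640) and without the variance trend (0.139). KRT8 is on the minus strand at chr12:52897187-52949954.

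The KRT8 and KRT18 genes overlap by 1084 bases on opposite strands, and the library kit keeps the strand while the sources do not state whether the counting used it. Of the 1364 windows of 50 bases, the read length, in the reference transcript of KRT18, 23.9% also occurred on the opposite strand in a transcript of KRT8. Both genes have many processed pseudogenes with near-identical sequence. Of the windows of KRT8, 39.0% occurred without a mismatch in at least 1 KRT8 pseudogene, and for KRT18 the share was 35.3%. For KRT19 it was 1.79%. KRT8 and KRT18 values are therefore uncertain to the extent that reads were split between copies. The summed level of the 50 KRT8 pseudogenes in the table was 9.39% to 14.7% of the KRT8 level in each library, and that of the 68 KRT18 pseudogenes was 2.23% to 3.49% of the KRT18 level. With the pseudogenes added to KRT8 the log2 fold change was 0.27 (limma with Benjamini-Hochberg adjustment, adjusted p = 0.0480).

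Among the basal keratins the genes did not move in 1 direction. KRT15, a type I keratin of basal and progenitor cells, was at 0.182, 0.0654 and 0.0598 FPKM in parental libraries and at 1.60, 1.80 and 1.78 FPKM in resistant libraries. The estimated read numbers behind these values were 6, 2 and 1 in parental libraries and 41, 44 and 38 in resistant libraries. All resistant values were above the parental ones, at a level far under that of the luminal keratins. The mean was 0.102 ± 0.0691 FPKM in parental and 1.72 ± 0.108 FPKM in resistant cells (SD, n = 3 each; log2 fold change 3.22, SE 0.37, limma with Benjamini-Hochberg adjustment, adjusted p = 7.97e-04). The parental mean rests largely on replicate 0, and a pseudocount of 1 FPKM gave a log2 fold change of 1.31 and one of 0.01 FPKM gave 4.11. KRT15 lies at chr17:41513745-41522529 on the minus strand, 1087 bases from KRT19.

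KRT14, the type I partner of KRT5 in basal cells, changed in the opposite direction. It was at 0.587, 0.493 and 0.927 FPKM in parental libraries, from an estimated 17, 14 and 18 reads, and was listed at 0 in all 3 resistant libraries. KRT14 was called lower (limma with Benjamini-Hochberg adjustment, adjusted p = 0.00201), and no fold change is given against a group listed at 0. Of its windows of 50 bases, 24.2% occurred in other genes, most often KRT16, which had a mean of 0.0502 FPKM in parental and 0.0282 FPKM in resistant cells. The gene is at chr17:41582279-41586895, on the minus strand.

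KRT5, the main type II keratin of basal cells, was listed at 0 in all parental libraries and in resistant replicates 1 and 2, and stood at 0.227 FPKM in resistant replicate 0, from an estimated 8 reads. KRT17, a type I keratin of basal cells that is also induced by stress, was at 0.111 FPKM in parental replicate 0 and 0.223 FPKM in resistant replicate 0 and was listed at 0 in the other 4 libraries. Thus the resistant values of KRT5 and KRT17 came from a single library, the one with the largest number of genes above 0. The part of this library in these values was not tested. KRT5 is the type II gene among these 4 basal keratins, so the basal keratins that passed the filter were of type I.

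KRT7, a type II keratin of simple and glandular epithelia, was nearly absent in parental cells. It was listed at 0 in parental replicates 0 and 2 and at 0.197 FPKM in parental replicate 1, and reached 25.1, 16.6 and 25.1 FPKM in resistant replicates 0, 1 and 2. The estimated reads were 0, 5 and 0 in parental libraries and 607, 381 and 510 in resistant libraries, so the resistant values rest on at least 381 reads. The resistant mean was 22.3 ± 4.89 FPKM (SD, n = 3; log2 fold change 7.25, SE 0.49, limma with Benjamini-Hochberg adjustment, adjusted p = 9.12e-05). KRT7 passed the filter through its resistant values alone, so the call is a description of this gene. The size of the change depends on the pseudocount, with a log2 fold change of 4.43 for 1 FPKM and 9.64 for 0.01 FPKM. KRT7 is on the plus strand at chr12:52232520-52252186. It overlaps KRT7-AS on the opposite strand, listed at 0 in every library, and KRT86 on the same strand, with a mean of 0 and 0.0119 FPKM in parental and resistant cells.

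KRT80, a type II keratin of several differentiated epithelia, was low in both lines. Its values were 0.573, 0.458 and 0.592 FPKM in parental libraries and 0.138, 0.0803 and 0 FPKM in resistant libraries. The groups did not overlap (log2 fold change -1.97, SE 0.47, limma with Benjamini-Hochberg adjustment, adjusted p = 0.0155). Its size varied with the pseudocount, from -0.52 on the log2 scale (1 FPKM) to -3.42 (0.01 FPKM). The call was lost without parental replicate 0 (0.0540), without parental replicate 2 (0.0522) and with a pseudocount of 0.01 FPKM (0.0501). KRT20, a type I keratin of intestinal and urothelial cells, was listed at 0 in parental cells and at 0.0719, 0 and 0.0435 FPKM in resistant libraries, from an estimated 2, 0 and 1 reads.

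The order of the levels differed between the lines. In parental cells KRT18 was highest, followed by KRT8 and KRT19, with no overlap between neighbours, and KRT14 and KRT80 came next with overlapping ranges. The ranges of KRT15, KRT7 and KRT17 at the lower end overlapped from neighbour to neighbour. In resistant cells KRT19 was first and did not overlap KRT8. KRT8 and KRT18 overlapped, with KRT8 above KRT18 in 2 of the 3 libraries, and KRT7 and then KRT15 followed without overlap.

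The make-up of the keratin pool was described as the share of each gene in the summed FPKM of 54 keratin genes, 28 of type I and 26 of type II. The sum was 436, 376 and 439 FPKM in parental libraries and 628, 619 and 661 FPKM in resistant libraries. KRT18 made up 52.9% to 56.7% of it in parental cells and 24.2% to 25.9% in resistant cells. KRT19 went from 4.33% to 5.04% in parental cells to 41.4% to 44.5% in resistant cells, where it was the largest contributor. The share of KRT8 was 31.2% to 35.5% in parental and 25.8% to 28.6% in resistant libraries, even though its FPKM was higher in the latter. KRT7 accounted for at most 0.0526% in parental libraries and for 2.68% to 3.99% in resistant libraries. The 10 keratins together held 91.9% to 93.0% of the sum in parental cells and 98.6% to 99.2% in resistant cells, most of the remainder being KRT10.

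**Figure D2:**
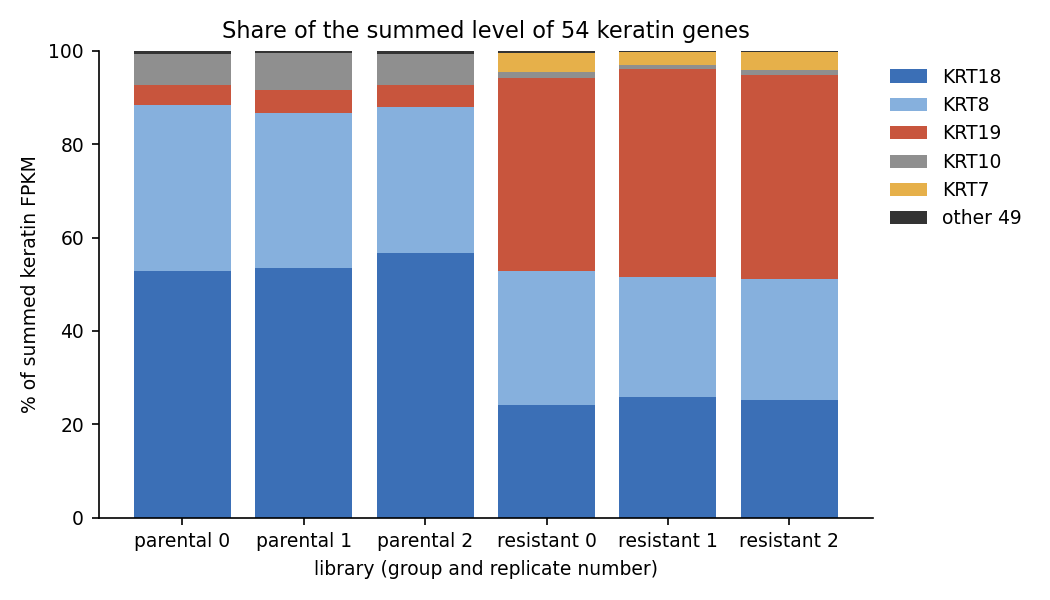
Stacked bars give the percentage of the summed FPKM of 54 keratin genes held by 5 named genes and by the other 49 together, for each of the 6 libraries on the x axis. KRT18 is the largest segment in the parental bars and KRT19 in the resistant bars.

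Since filaments are built from type I and type II pairs, the summed type II level was divided by the summed type I level in each library. The ratio was 0.510 ± 0.0477 in parental and 0.436 ± 0.0443 in resistant cells (SD, n = 3 each). The ranges overlapped, 0.465 to 0.560 against 0.3996 to 0.486. The log2 difference was -0.22 (exact two-sided permutation test, p = 0.2, where 0.1 is the smallest value that 3 against 3 libraries allow). With only the 10 keratins in the sums the log2 difference was -0.35 and had the smallest exact p, 0.1. A further 3 ratios were chosen after the values had been seen. KRT8 to KRT18 was 0.614 ± 0.0598 in parental and 1.07 ± 0.0984 in resistant cells. KRT19 to KRT18 was 0.0862 ± 0.00705 in parental and 1.72 ± 0.00599 in resistant cells, and KRT19 to KRT8 was 0.141 ± 0.0167 and 1.62 ± 0.147. The groups did not overlap for any of these 3 ratios, and each had the smallest p that the exact permutation test allows, 0.1, which became 0.133 after Benjamini-Hochberg adjustment over the 4 ratios.

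**Figure D3:**
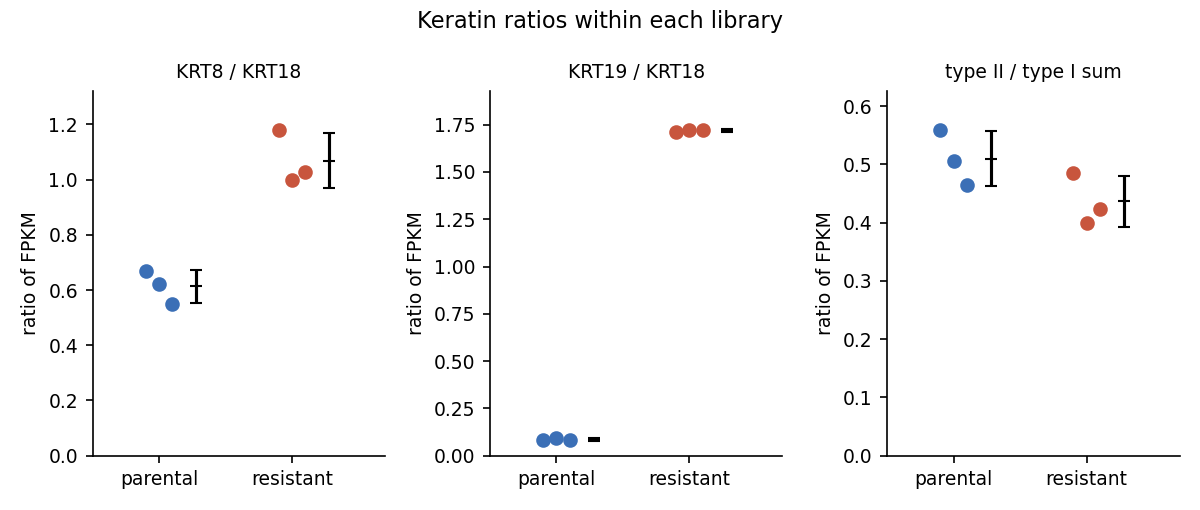
Each point is the ratio of FPKM values within 1 library, for KRT8 over KRT18, KRT19 over KRT18, and the type II sum over the type I sum, with the mean ± SD of 3 libraries beside the points and each y axis starting at 0. The first 2 ratios separate the groups, whereas the type II to type I ratios overlap.

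Few of the other keratin genes passed the filter. Of 22 other type I keratins, 12 were listed at 0 in every library and 1 passed the filter, and of 22 other type II keratins, 11 were listed at 0 in every library and 2 passed the filter. KRT10, a type I keratin of differentiating squamous epithelium, was at 29.1, 29.4 and 29.1 FPKM in parental libraries and at 8.08, 4.82 and 7.82 FPKM in resistant libraries. It was above KRT19 in parental cells and far under it in resistant cells (log2 fold change -2.10, SE 0.21, limma with Benjamini-Hochberg adjustment, adjusted p = 4.09e-04). KRT73, an inner root sheath keratin, was also called lower (adjusted p = 0.00514 in the same limma test), at 0.541, 0.575 and 0.912 FPKM against 0.0311, 0.0895 and 0 FPKM. KRT73 passed the filter through its parental values alone, so the call is a description of this gene.

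KRT15 and KRT19 are neighbours, and both were upregulated. The nearest keratin genes on either side were at or near 0. KRT13, with its start 22.6 kb from that of KRT19, was listed at 0 in every library, and KRT9, 43.8 kb away on the other side, had a mean of 0 in parental and 0.0410 FPKM in resistant cells. KRT14, 58.6 kb away, changed in the opposite direction. Further along, JUP, which encodes the desmosomal protein plakoglobin, started 259 kb from KRT19 and had a mean of 182 FPKM in parental and 54.6 FPKM in resistant cells.

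**Figure D4:**
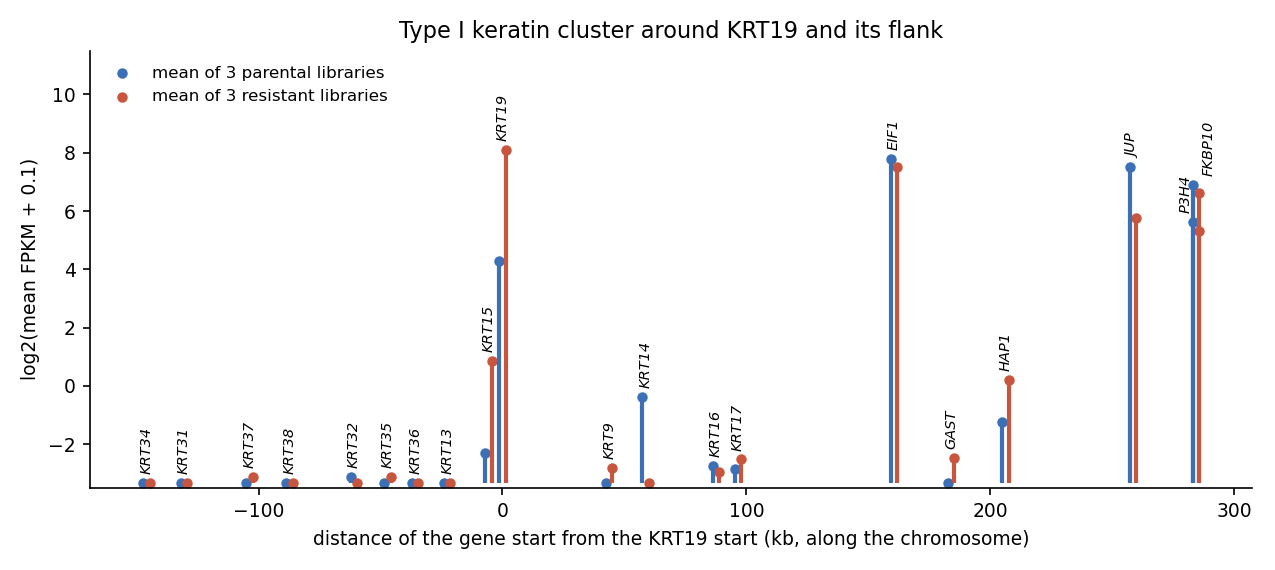
Mean level of each protein-coding gene of the type I keratin cluster and its flank, as log2(mean FPKM + 0.1), against the distance of its start from that of KRT19 in kb. Paired lines, set slightly apart, are the means of 3 parental and 3 resistant libraries. KRT15 and KRT19 are higher in resistant cells, KRT14 and JUP are lower, and the genes to the left of KRT15 stay at or near 0.

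Desmosome and plakin genes, whose products hold keratin filaments at the cell membrane, were mainly lower in resistant cells. Of 19 genes 16 were tested, of which 9 were called lower, 2 higher and 5 neither, with a median log2 fold change of -1.09 against -0.05 over all genes tested, of which 22.3% were called lower and 22.1% higher. JUP was at 183, 183 and 181 FPKM in parental libraries and at 52.6, 52.5 and 58.7 FPKM in resistant libraries (log2 fold change -1.74, SE 0.07, limma with Benjamini-Hochberg adjustment, adjusted p = 1.59e-05). The plakins PPL (log2 fold change -2.47) and EPPK1 (-2.36), which bind keratin filaments, were also called lower. PKP1, a plakophilin of stratified epithelia, was called higher from 0.309 ± 0.184 to 2.05 ± 0.293 FPKM, and PERP, a desmosomal membrane protein, from 18.4 ± 1.03 to 29.7 ± 1.65 FPKM (SD, n = 3 each).

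Among the genes of other intermediate filaments more were called higher than lower. Of 15 genes 12 were tested, with 7 called higher, 2 lower and 3 neither (22.1% and 22.3% of all genes tested were called higher and lower), and a median log2 fold change of 0.68. NEFH, a neurofilament subunit, was at 0.0122, 0.0507 and 0.0366 FPKM in parental libraries and at 8.84, 9.35 and 9.36 FPKM in resistant libraries. NEFH passed the filter through its resistant values alone. NES, the progenitor cell filament nestin, rose 22.0-fold, from 1.27 ± 0.0638 to 27.9 ± 1.50 FPKM, and PRPH, the neuronal filament peripherin, rose 10.3-fold, from 1.46 ± 0.328 to 15.1 ± 2.26 FPKM (SD, n = 3 each). VIM, the mesenchymal filament vimentin, was called lower, from 21.7 ± 2.19 to 5.34 ± 0.578 FPKM. LMNB1, a nuclear lamin and the highest of the list, was at 160.3 ± 8.27 and 165 ± 21.2 FPKM with overlapping ranges (log2 fold change 0.04, adjusted p = 0.804 by limma with Benjamini-Hochberg correction).

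All 8 genes listed for keratin binding and turnover were tested, and 1 was called higher, 4 lower and 3 neither, beside 22.1% and 22.3% of all genes tested, with a median log2 fold change of -0.39. SFN, which encodes 14-3-3 sigma, a protein that binds phosphorylated keratins, was the gene called higher, at 0.478, 0.395 and 0.548 FPKM in parental libraries and 135, 146 and 134 FPKM in resistant libraries. This 292-fold difference exceeded that of KRT19 (log2 fold change 7.92, SE 0.14, limma with Benjamini-Hochberg adjustment, adjusted p = 1.18e-06). DNAJB6, a co-chaperone of KRT18 (log2 fold change -0.56), PNN, a desmosome-associated and nuclear protein (-0.50), FAM83H (-0.44) and CSNK1A1 (-0.35), a kinase that FAM83H brings to keratin filaments, were called lower.

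**Figure D5:**
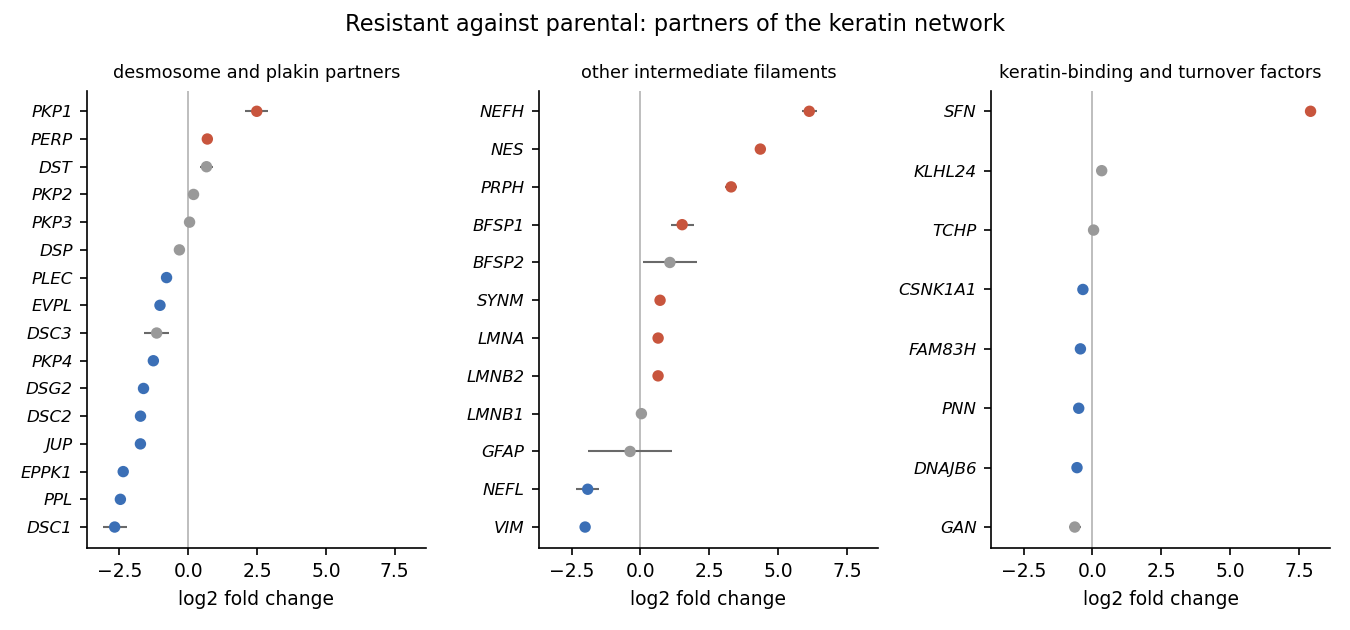
Log2 fold change of resistant against parental cells on the x axis for each tested gene of 3 lists, with lines of ± 1 SE. Red points were called higher, blue points lower and grey points neither, and most desmosome and plakin genes are to the left of 0 while most other intermediate filament genes are to the right.

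Other luminal and basal markers were set beside the keratins. All 12 luminal markers other than keratins were tested, with 7 called lower, 2 higher and 3 neither, beside 22.3% of all genes tested called lower and 22.1% higher. KLK3, the androgen-regulated gene of PSA, was at 2489, 2321 and 2857 FPKM in parental libraries and at 46.8, 43.5 and 41.8 FPKM in resistant libraries, and KLK2 and DPP4 were also called lower (log2 fold changes -2.49 and -4.62). CD24, a surface glycoprotein, was called higher, from 2.12 ± 1.77 to 13.5 ± 0.476 FPKM (SD, n = 3 each). Thus KRT19 and KLK3, both counted as luminal markers, changed in opposite directions. Of 10 basal markers other than keratins 7 were tested, with 1 called higher, 2 lower and 4 neither, close to these shares. ITGA6 and SNAI2 were lower (log2 fold changes -2.39 and -4.15), and SNAI2 passed the filter through its parental values alone. TP63, which encodes the defining transcription factor p63 of basal cells, was listed at 0 except for 0.0356 FPKM in resistant replicate 0.

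Markers of other cell types were also read, since fewer cells of a type and less RNA per cell cannot be told apart in bulk RNA. Of 6 neuroendocrine markers 4 were tested and 3, SYP, ENO2 and CHGA, were called higher. Of all genes tested, 22.1% were called higher and 22.3% lower. NCAM1, the other tested gene, was not called, with a mean of 0.334 FPKM in parental and 0.124 FPKM in resistant cells. CHGA, with means of 0.0495 and 0.563 FPKM, passed the filter through its resistant values alone. The summed level of the list was 7.07 to 11.3 FPKM in parental and 178 to 199 FPKM in resistant libraries. INSM1, a neuroendocrine transcription factor, was at or under 0.0558 FPKM in every library. The 6 fibroblast markers summed to 8.04 to 10.9 FPKM in parental and 8.34 to 14.95 FPKM in resistant libraries, with 2 of 5 tested genes called higher and 1 lower. DCN, a fibroblast proteoglycan, was listed at 0 in all parental libraries and stood at 3.63, 3.78 and 4.35 FPKM in resistant libraries. The 5 leukocyte markers summed to at most 0.412 FPKM in parental and 2.70 FPKM in resistant libraries. CD14 and ITGAM were tested and did not pass, and CD3E was at 0 in all libraries. The 4 endothelial markers summed to 0.568 to 1.14 FPKM and 0.0946 to 0.420 FPKM, with the 1 tested gene, VWF, called lower and KDR at 0 throughout. The part of these markers in the keratin values was not tested.

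The genes with profiles nearest to those of KRT8 and KRT18 were taken as a description over the 6 libraries, among the 16382 genes whose mean reached 1 FPKM. Distance was the root mean square difference between log2(FPKM + 0.1) values centred on each gene's own mean. The nearest to KRT18 were CREB3L4 at 0.0171, SDF4 at 0.0191 and POLQ at 0.0284. For KRT8 they were SDCCAG8 at 0.0402, PCNT at 0.0460 and ABI1 at 0.0553.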

How the data were processed

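Total RNA was sequenced as 50 bp single-end reads on an Illumina HiSeq instrument after a TruSeq Stranded Total RNA preparation. Per the methods, the authors computed FPKM with Cufflinks 2.2.1 and GENCODE v25 after trimming (TrimGalore 0.4.3) and alignment to GRCh38 (STAR 2.5.3). The submitters' processing notes instead name Trimmomatic 0.27, FastQC 0.10.1 and mm10. The deposited table holds human gene identifiers, 58024 in all, and no unit in its header, and its values were read as FPKM. No counts were used, so depth was estimated from the steps between low values, with fragments of 200 bases assumed. Gene positions were from GENCODE v44 (56980 identifiers matched).

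Resistant and parental libraries, 3 each, were compared with limma 3.58.1 (R 4.3.3) on log2(FPKM + 0.1), with a variance trend and a two-sided adjusted p under 0.05 as the threshold. The procedure was tested on simulated data. Windows of 50 bases were compared between GENCODE v44 transcripts without mismatches. The keratins and gene lists were chosen with earlier results of these data known. All keratins were named, and from each list up to 3 genes called higher and up to 3 called lower, with the largest changes where the mean reached 1 FPKM and the groups did not overlap, plus the gene with the highest mean. Neighbouring or overlapping genes of the keratins were named outside that rule, after their values were seen. So were the markers CHGA, NCAM1, INSM1, TP63, CD14, ITGAM, CD3E, VWF and KDR. The alternatives covered pseudocount, filter, scaling, variance model, replicate number, pseudogenes and libraries left out. Some list members are not reported here.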

Additional observations from a re-analysis of the deposited data

How the results depend on the processing

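KRT18, KRT19, KRT7, KRT15 and KRT14 kept their direction under every alternative that could be run for them, and their call under all of these but 1, the added demand for a 2-fold change, under which KRT18 was not called. That demand left 3 keratins called higher and 2 lower. KRT8, which it also removed, lost its call under 7 of 16 further alternatives and KRT80 under 3 of 14, always with the same direction. With a filter at a mean of 1 FPKM, 1 keratin was called lower in place of 3, because KRT14 and KRT80 were no longer tested. The number called higher was 3 or 4 throughout, and with 1 library left out it ranged from 3 to 4 and the number called lower from 2 to 3. The log2 difference of the type II to type I ratio ranged from -0.30 to -0.16 with 1 library left out. It was -0.35 with only the 10 keratins summed, -0.40 without KRT7 and 1.06, a reversal, without KRT19, each with an exact permutation p of 0.1, the smallest possible, in place of 0.2. Leaving out KRT7 or KRT19 was chosen after seeing the data, and these shifts follow from the genes left out of the sum. Replicate numbers did not pair the samples (correlations of same-numbered deviations -0.00301 to 0.0165), and with a replicate block 4 keratins were called higher and 3 lower, while the ratio had an exact paired p of 0.25, the smallest for 3 pairs. Without counts, values under a few reads, as for KRT5, KRT17 and KRT20, do not limit expression.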

Other observations

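Of 148 keratin pseudogenes in the table, 24 were tested, with 6 called higher, 3 lower and 15 neither, by limma with Benjamini-Hochberg adjustment, beside the 22.1% higher and 22.3% lower of all genes tested. KRT8P12 was at 7.73, 10.6 and 8.03 FPKM in parental libraries and at 4.01, 3.70 and 4.93 FPKM in resistant libraries, opposite in direction to KRT8. KRT8P31 was at 2.37, 2.56 and 2.67 FPKM in parental libraries and under 0.1 FPKM in each resistant library. KRT8P30 and KRT8P13 were called higher, KRT8P30 being at 0.102, 0 and 0 FPKM in parental and 3.25, 1.72 and 3.94 FPKM in resistant libraries. KRT8P31 passed the filter on low values through its parental values alone and KRT8P30 through its resistant values alone. KRT8P46 and KRT18P31 did not pass the test. Reads shared between these copies and KRT8 or KRT18 were not separated here.

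Beside the type II cluster, genes outside the keratin family differed in direction. EIF4B, a translation initiation factor with its start 56.3 kb from that of KRT8, had a mean of 106 FPKM in parental and 139.95 FPKM in resistant cells and was called higher. TNS2, a focal adhesion protein 97.0 kb away, was called lower, with means of 44.6 and 14.2 FPKM. SPRYD3, 129 kb away, was not called, with means of 14.2 and 17.4 FPKM. IGFBP6, which binds insulin-like growth factors, was listed at 0 in parental cells and had a mean of 0.633 FPKM in resistant cells. It was called higher and passed the filter through its resistant values alone. Of all genes tested, 22.1% were called higher and 22.3% lower.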
